A study of Homo sapiens with 4 samples.

Results

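The nuclear genes for subunits of the mitochondrial respiratory chain and ATP synthase were examined in OVCAR3, a cancer cell line derived from a human serous carcinoma of the ovary. Members were all gene rows whose symbol follows the naming of complex I (NDUFA, NDUFB, NDUFC, NDUFS and NDUFV with a number), complex II (SDHA to SDHD), complex III (UQCR genes and CYC1), complex IV (COX5 to COX8 genes) or complex V (ATP5 genes, with the inhibitor ATP5IF1). The rule found 79 of 62696 gene rows, of which 37 belong to complex I, 4 to complex II, 8 to complex III, 14 to complex IV and 16 to complex V. It uses symbols only and no measured value.

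The respiratory chain sits in the inner mitochondrial membrane. Complex I and complex II take electrons from NADH and succinate and pass them to ubiquinone, complex III passes them to cytochrome c, and complex IV passes them to oxygen. Complexes I, III and IV pump protons while doing so, and complex V, the ATP synthase, lets the protons flow back to make ATP. Complex II is encoded by nuclear genes alone. The other complexes combine nuclear subunits with a few made from the mitochondrial genome, so their assembly needs both sets.

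RNA was compared between OVCAR3 cells with short hairpin RNA knockdown of the pseudogene transcript ANAPC1P2 (KD, 3 libraries named KD 1, 2 and 3 after the sets in the labels) and wild-type OVCAR3 cells (WT, 1 library). Both were grown in RPMI medium with fetal bovine serum, and the libraries were made from ribosome-depleted total RNA. The labels give no library with a non-targeting hairpin, no hairpin sequence and no statement of whether the KD sets were separate cultures, clones or repeats of 1 preparation. Effects of carrying a hairpin and of losing ANAPC1P2 therefore cannot be told apart, and p-values measure only how these libraries vary, which may be technical.

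The targeted transcript was weak in every library. Its annotated row with reads (ENSG00000285793) held 0, 11 and 8 reads in KD 1, 2 and 3 and 14 in WT, or 0, 8.55 and 8.89 against 15.6 normalized counts, which was under the minimum for testing. The parent gene ANAPC1, a subunit of the anaphase-promoting complex, stood at 8033, 7825 and 8540.2 normalized counts in KD and 5819 in WT, and near-identical copies can share its reads. Counted depth was 42871815 to 56216398 reads in KD and 27868718 in WT. All 13 ovarian carcinoma markers passed the minimum level, so markers of the labelled cell type were present in both groups. Of these, 8 were higher in KD and 3 (PAX8, MUC16 and MSLN) were lower. MUC16 was 15.9-fold and PAX8 3.15-fold higher in WT. For all marker counts here, the background is the 45.9% of protein-coding genes called higher and 24.7% called lower. The 3 of 13 lower is near that background. WT also held transcripts of other cell types that were low in KD. The sum of 10 red cell markers was 8.53 to 25.6 normalized counts in KD and 14873 in WT, with HBB, HBA1 and HBA2 at 0 in every KD library. HBG2 went the other way, at 4.74, 24.1 and 7.78 in KD and 0 in WT, and made up most of the KD sum. For 11 leukocyte markers the sum was 219 to 306 against 1292, with LYZ and FCGR3B at 0 in KD. For 10 neural markers it was 284 to 302 against 3651, of which NEUROD6, at 0 in KD, made up 2374. Of 9 neural markers tested, 5 fell and 4 (GRIN1, RBFOX3, SLC17A7 and GFAP) were not called. The sum of 7 fibroblast markers was 520.4 to 653 against 1205, most of it COL1A1 (427 to 527 against 916). Of 5 fibroblast markers tested, 3 fell and 2 (LUM and PDGFRB) were not called. The source of these transcripts and their part in the differences below were not tested, and WT, being a single library, cannot be left out. In bulk RNA, fewer cells of a type and less RNA per cell cannot be told apart.

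Levels below are deposited normalized read counts. Each difference is on the log2(value + 1) scale, KD minus WT, from limma fitted over all 23344 genes with a mean of at least 10, and a gene is called at a Benjamini-Hochberg adjusted p under 0.05. Fold values are ratios of mean normalized counts. Levels of different genes are compared only per length, as reads scaled to exonic length and to the counted reads of the library (RPKM).

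Most subunit genes were higher in KD. Of the 77 members tested, 65 rose, 4 fell (NDUFV2, NDUFA11, NDUFA10 and COX7A1) and 8 were not called. Across all genes tested, 31.4% were called higher and 36.3% lower, and across protein-coding genes 45.9% and 24.7%, so the members' share of higher calls stood above both backgrounds. The balance of calls over all genes moves with the scaling, from 19.6% higher and 53.2% lower with equal library totals to 38.1% and 28.6% with median-of-ratios scaling. The members' median log2 difference was 1.54, against -0.28 over all genes tested and 0.28 over protein-coding genes. Other scalings moved the median of all genes by -0.61 to 0.30, and the members' median lay 1.79 to 1.87 above it. A scaling shifts all genes of a library alike, so this gap could hardly change and is no check of the result. With other sets of genes the gap was 1.37 (mean of at least 50), 2.24 (no minimum level) and 1.26 (protein-coding genes alone). In 67 members all 3 KD libraries lay above WT and in 10 all 3 lay below. Among all genes tested these shares were 40% and 52.2%. COX6A2 and COX8C had no read in any library.

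**Figure D1:**
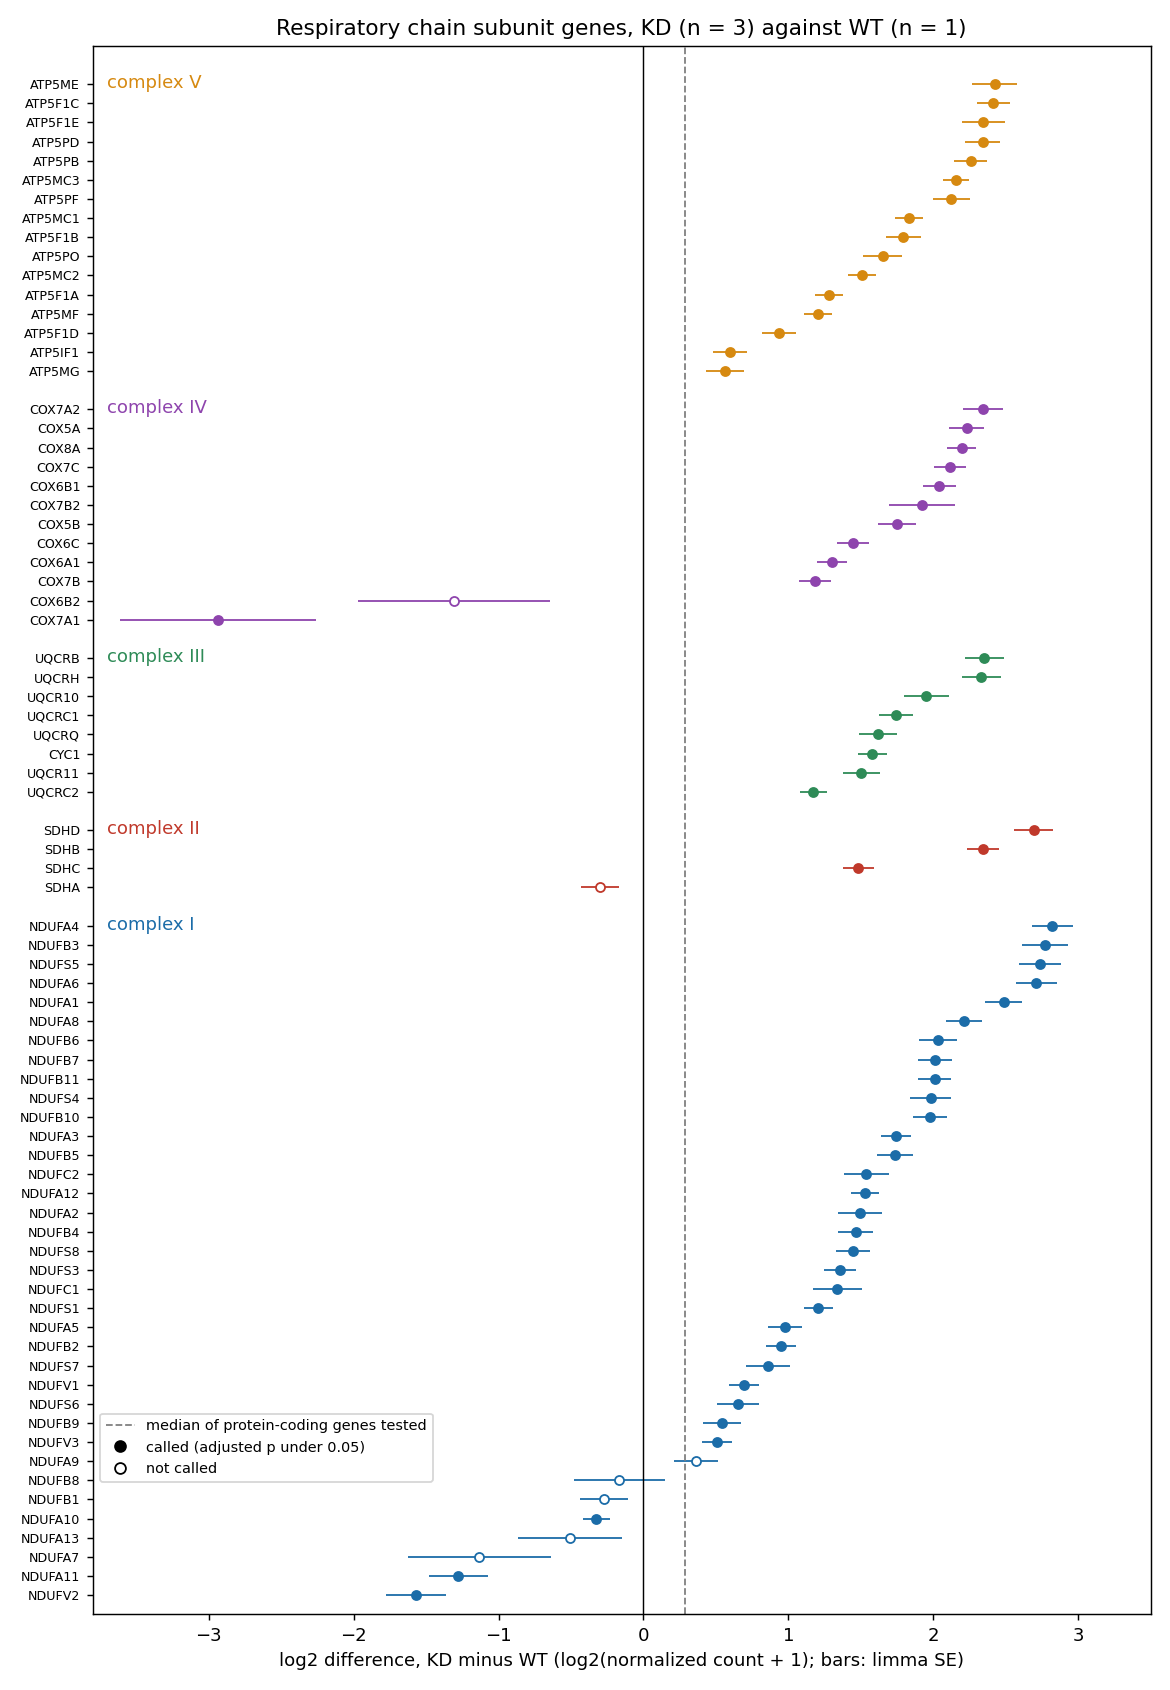
Log2 difference of 76 tested subunit genes, KD (3 libraries) minus WT (1 library), grouped by complex; points are limma estimates, bars their standard errors, filled points are called and the dashed line is the median of protein-coding genes tested. Complexes III and V lie wholly to the right of 0, while complex I spans from -1.57 (NDUFV2) to 2.82 (NDUFA4).

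As a share of all counted reads, the members took 0.669%, 0.641% and 0.661% in KD 1, 2 and 3 and 0.3135% in WT (95% Wilson interval 0.3115 to 0.3156%, counting error only). That share was 2.10-fold higher in KD. Summed over members, normalized counts were 3.10-fold higher in KD. On this scale the sum over all genes tested was itself 1.48-fold higher in KD, and over protein-coding genes tested 1.54-fold. The sum for complex I was 101020, 92380 and 104720 in KD against 40162 in WT, the smallest ratio of the 5 complexes at 2.47-fold. For complex II it was 18199, 16504 and 18461 against 5042 (3.51-fold), and for complex III 38674, 35071 and 39689 against 11451 (3.30-fold). Complex IV had the largest ratio, at 51350, 46568 and 52132 against 12721 (3.93-fold). Complex V stood at 97872, 89590 and 100180 against 27670 (3.47-fold). In every complex the KD libraries lay close together and well above WT, with KD 2 the lowest. These ratios were not tested against each other.

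**Figure D2:**
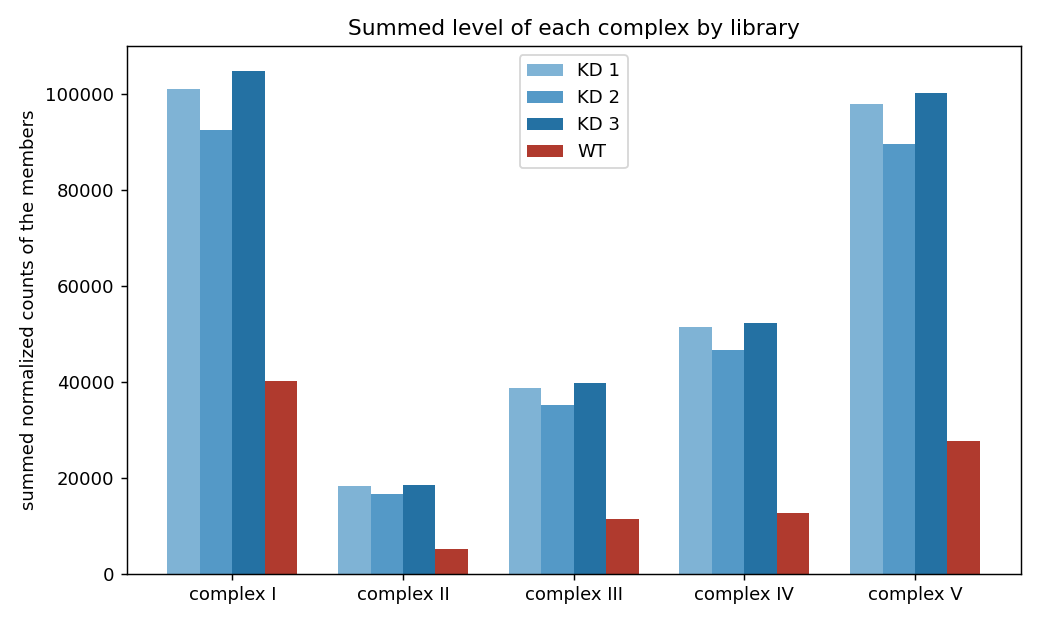
Summed normalized counts of the members of each complex in each library (bars start at 0; 3 KD libraries in blue, WT in red). All KD bars of a complex exceed its WT bar, and KD 2 is the lowest KD bar in each of the 5 complexes. The sum over all genes tested, not drawn, was 1.48-fold higher in KD.

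In complex II, 3 subunit genes rose and SDHA was not called, and its genes are shown first with their promoters. SDHA carries the flavin and oxidizes succinate, SDHB holds the iron-sulfur clusters, and SDHC and SDHD anchor both in the membrane and bind ubiquinone. The 250 bases before the RefSeq transcription start (GRCh38.p14) are printed 5′ to 3′ on the gene's strand for SDHA (chr5:218070-218319, plus strand), SDHB (chr1:17054033-17054282, minus strand) and SDHD (chr11:112086623-112086872, plus strand), with ATP5ME of complex V (chr4:674277-674526, minus strand) as the called ATP synthase gene with the largest rise. Capitals mark matches on either strand to the motif of NRF1 (GCGCANGCG), of ETS factors such as GABPA (CCGGAAG) or of the cyclic AMP response element (CRE, TGACGTCA). NRF1 and GABPA are textbook regulators of respiratory genes.
SDHA: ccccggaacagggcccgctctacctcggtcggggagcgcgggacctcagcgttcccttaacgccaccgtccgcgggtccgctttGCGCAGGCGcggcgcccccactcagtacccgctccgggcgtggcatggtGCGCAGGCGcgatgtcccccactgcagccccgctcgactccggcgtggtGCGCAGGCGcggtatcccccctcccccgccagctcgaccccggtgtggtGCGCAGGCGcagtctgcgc
SDHB: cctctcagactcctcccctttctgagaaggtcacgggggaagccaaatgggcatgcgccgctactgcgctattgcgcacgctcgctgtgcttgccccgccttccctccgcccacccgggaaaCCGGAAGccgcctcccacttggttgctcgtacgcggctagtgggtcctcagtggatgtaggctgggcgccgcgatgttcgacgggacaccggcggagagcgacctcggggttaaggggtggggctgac
SDHD: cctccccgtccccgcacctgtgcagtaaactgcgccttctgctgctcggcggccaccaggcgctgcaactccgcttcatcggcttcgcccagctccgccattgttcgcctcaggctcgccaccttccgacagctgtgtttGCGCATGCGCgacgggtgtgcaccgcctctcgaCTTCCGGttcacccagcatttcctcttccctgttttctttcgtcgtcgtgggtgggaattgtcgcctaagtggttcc
ATP5ME: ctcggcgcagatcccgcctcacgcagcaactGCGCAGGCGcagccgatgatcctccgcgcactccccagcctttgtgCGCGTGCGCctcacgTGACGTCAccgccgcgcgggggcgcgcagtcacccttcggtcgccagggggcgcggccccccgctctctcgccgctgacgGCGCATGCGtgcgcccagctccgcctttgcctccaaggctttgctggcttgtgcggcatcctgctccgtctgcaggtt
The SDHA sequence holds 4 NRF1 matches, SDHB 1 ETS match, SDHD 1 NRF1 and 1 ETS match, and ATP5ME 3 NRF1 matches and 1 CRE match.

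SDHA (ENSG00000073578, chromosome 5, 218241 to 256700 in GENCODE 29) stood at 447, 479 and 467 normalized counts in KD and 572 in WT. All 3 KD libraries lay below WT, and the difference was not called, at -0.30 (95% interval -0.62 to 0.02, limma adjusted p = 0.0807). It was called lower with equal library totals (-0.86, adjusted p = 0.00367) and without the minimum level (adjusted p = 0.0451). SDHB (chromosome 1, 17018722 to 17054170) stood at 5632, 4895 and 5245 against 1033, a 5.09-fold rise (log2 2.34, SE 0.11, limma adjusted p = 6.57e-05). SDHD (chromosome 11, 112086773 to 112120013) had 4387, 3676 and 4442 against 641, a 6.5-fold rise, the largest of complex II. SDHC (chromosome 1, 161314257 to 161375340) had 7732, 7455 and 8307 against 2797, a 2.80-fold rise. For these 3 genes the KD and WT values were far apart. SDHA was the least abundant per length, at 1.21 RPKM in KD and 2.20 in WT, against 12.1 to 46.7 and 6.38 to 13.6 for the other 3. SDHA also has near-identical pseudogene copies, and the 6 pseudogene rows named after it held 1028, 1331 and 940 reads in KD and 2027 in WT. That is 219% of the reads of SDHA itself in KD and 394% in WT, so its level is uncertain. The counting of reads that match several genes was not given in the sources used here.

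These motifs were more frequent in members than in all promoters, and they occurred both in members that rose and in members that did not. Of the 79 members, 64 had a window of 300 bases (250 before to 50 after the start) in the RefSeq table. Both strands were searched, matches of the same motif that share bases were counted as 1, and no window held matches of different motifs that shared bases. NRF1 matches were in 20 windows (31.2%, against 7.52% of all 35116 windows of that length) and ETS matches in 18 (28.1% against 10.3%). The motif AAGATGGCG of YY1 was in 8 (12.5% against 1.75%) and CRE in 5 (7.81% against 1.85%). At least 1 of the 4 motifs was in 39 windows (60.9% against 18.8%). Each member was counted once, while the full set may repeat genes and was not selected by gene type or expression. The 2 sets are therefore unlike, and these shares were not tested against each other. Members with an NRF1 match had a median log2 difference of 1.53 and those without 1.62, and for ETS the medians were 2.03 and 1.48. SDHA, with the 4 NRF1 matches printed above, was not called. Of the genes that fell, NDUFA11 had 1 NRF1 match, NDUFA10 1 CRE match and NDUFV2 no match. A match is a description of letters and not a bound site.

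Complex I is the NADH dehydrogenase and the largest of the chain. Of its 37 members 28 rose, 3 fell and 6 were not called, with a median log2 difference of 1.36. NDUFA4, named as a complex I gene but also counted as a subunit of cytochrome oxidase, stood at 8570.1, 6953 and 8381 normalized counts in KD and 1121 in WT, a rise of 7.11-fold (log2 2.82, SE 0.14, limma adjusted p = 6.57e-05). NDUFB3, a small subunit of the distal membrane arm, had 2014, 1555 and 1828 against 261 (6.89-fold). NDUFS5, of the proximal membrane arm, had 2344, 1864 and 2211 against 319 (6.71-fold). In each of these 3 genes KD 2 was the lowest KD library and still several times above WT.

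The 7 nuclear core subunits, which carry the flavin and iron-sulfur clusters that move electrons, had a median of 0.86 (5 of 7 rose, 1 fell), with a summed level 1.97-fold higher in KD. NDUFS1, the largest core subunit, stood at 10567, 10212 and 10808 against 4558 (2.31-fold). NDUFS8 and NDUFS3 rose 2.73-fold and 2.57-fold, NDUFS7 1.82-fold and NDUFV1, the flavin subunit that binds NADH, 1.62-fold. The calls for NDUFS7 and NDUFV1 were lost with equal library totals (log2 0.30 and 0.13, adjusted p = 0.0997 and 0.176).

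NDUFV2, the partner of NDUFV1 in the NADH-oxidizing tip, was the core subunit that fell. It (chromosome 18, 9102630 to 9134345) stood at 152, 139.9 and 129 against 418, so WT was 2.98-fold above KD (log2 -1.57, SE 0.21, limma adjusted p = 0.000865). NDUFA11, of the membrane arm, had 175, 197 and 158 against 429 (log2 -1.28, SE 0.20, limma adjusted p = 0.00205). NDUFA10 had 3368, 3282 and 3397 against 4196, a small fall (log2 -0.33, SE 0.09, limma adjusted p = 0.019). The KD and WT values did not overlap in any of the 3 genes. The call for NDUFA10 was lost with TMM, median-of-ratios and upper-quartile scaling, with DESeq2 and without KD 1 (adjusted p = 0.0655 to 0.669 over these 5), and held without KD 2 or KD 3.

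By list, 15 membrane arm subunits had a median of 1.74 (11 of 15 rose, and NDUFA10 and NDUFA11 fell). This list mixes proximal subunits with distal ones (NDUFB1, NDUFB4, NDUFB5, NDUFB6, NDUFB10 and NDUFB11), so it gives no median for either part. The NADH-oxidizing N module had 0.95 (7 of 8 rose, and NDUFV2 fell) and the quinone-binding Q module 0.92 (5 of 8 rose). A separate list of 5 other distal subunits had 0.95 (4 of 5 rose). Among accessory subunits not named so far, NDUFA6 rose 6.61-fold, NDUFA1 5.63-fold and NDUFA8 4.65-fold, while NDUFV3 and NDUFB9 rose 1.42-fold and 1.46-fold, calls that were lost and directions that turned with equal library totals (log2 -0.054 and -0.018). NDUFB9 also lost its call without the minimum level. Members not called included NDUFA7, NDUFA9, NDUFA13, NDUFB1 and NDUFB8. Per length, NDUFB10 was the most abundant complex I gene in KD, at 170 ± 6.67 RPKM (SD, n = 3) against 63.8 in WT.

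Many complex I genes that did not rise share exon sequence with another annotated gene on the same strand. In GENCODE 29, 82.9% of the main transcript of NDUFV2, 75.9% of NDUFA7, 71.7% of NDUFB8 and 67.0% of NDUFA11 lie in exons of such a gene. Those genes are AP005263.1, AC010323.1, AL133352.1 and AC024592.3, and they held no read in any library except AC010323.1, at 0.777 normalized counts in KD 2. ATP5PO of complex V, with 70.3% shared, rose 3.15-fold. These 5 members with at least 50% shared had a median log2 difference of -1.13. The 12 members with less sharing had 1.25 (9 rose, none fell, COX6B2, NDUFA9 and NDUFA13 were not called). The 60 with none in the main transcript had 1.74 (55 rose, NDUFA10 and COX7A1 fell). Of the 12 members not called higher, 7 had shared bases in the main transcript, against 10 of the 65 called higher. The contrast is smaller over all annotated exons. There NDUFB2, NDUFC1, NDUFS3, NDUFS8, NDUFV1, COX7C and ATP5MC2, which all rose, also shared 1.44 to 19.65% of their bases. The treatment of reads that overlap 2 genes was not given in the sources used here, so these levels are uncertain, and the part of sharing in the differences was not tested.

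**Figure D3:**
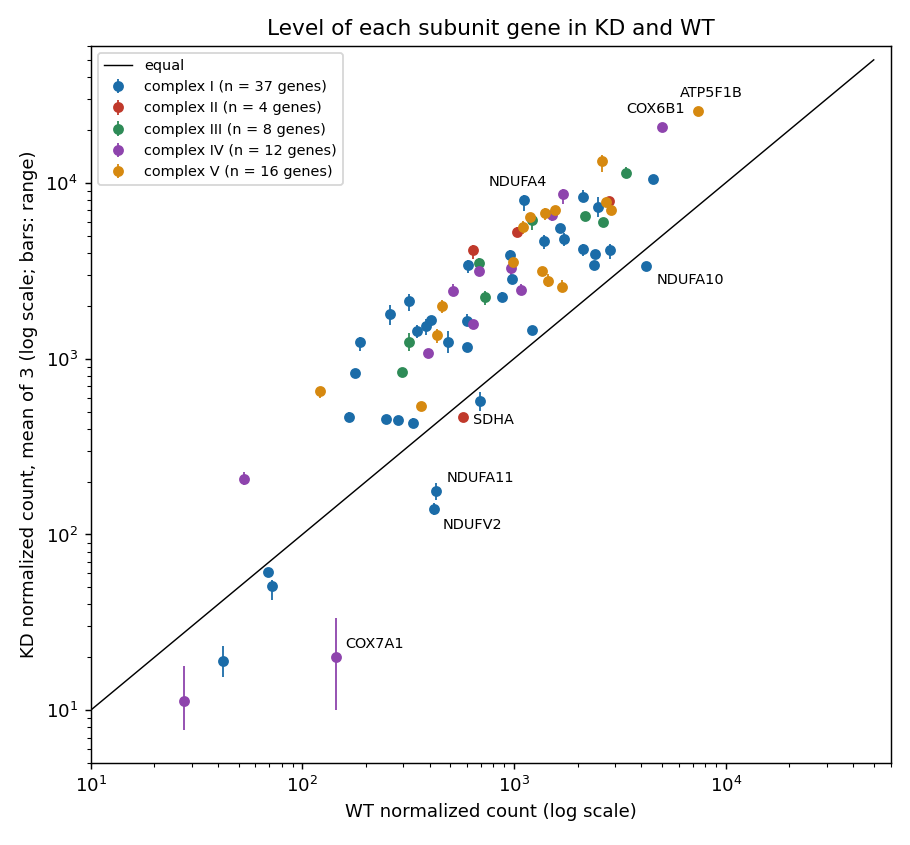
Normalized count of each tested member in WT (x axis, log scale) and in KD (y axis, log scale; mean of 3 libraries with bars from lowest to highest), coloured by complex. Most genes lie above the line of equal levels. The labelled NDUFV2, NDUFA11, NDUFA10, SDHA and COX7A1 lie below it, as do NDUFA7, NDUFA13, NDUFB1, NDUFB8 and COX6B2.

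All 8 complex III members rose, with a median log2 difference of 1.68 and a range of 1.17 (UQCRC2) to 2.35 (UQCRB). UQCRB, which helps bind ubiquinone, stood at 3689.8, 3082 and 3719.8 against 681 (5.14-fold). UQCRH, the hinge subunit near cytochrome c1, had 6499, 5420.2 and 6490.2 against 1213 (5.06-fold, log2 2.33, SE 0.13, limma adjusted p = 6.57e-05), and it was the most abundant member of the complex per length, at 95.1 ± 6.36 RPKM in KD (SD, n = 3). UQCR10 had 1213, 1108 and 1405 against 319 (3.90-fold). CYC1, cytochrome c1 itself, had 6618, 6151 and 6764 against 2176 (2.99-fold, log2 1.58, SE 0.10). The scaffold proteins UQCRC1 and UQCRC2 rose 3.35-fold and 2.26-fold. All 3 KD libraries lay above WT for every member of complex III. The calls for all 8 held under each of the 14 alternatives.

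Complex IV, cytochrome oxidase, has some subunits made as a common form and a form restricted to certain tissues, and the forms differed. The 5 common forms COX6A1, COX6B1, COX7A2, COX7B and COX8A all rose, with a median of 2.04. COX7A2 had 9172, 7548 and 9206 against 1695 (5.10-fold, log2 2.34, SE 0.14, limma adjusted p = 6.83e-05). COX8A had 3116, 3023 and 3254 against 682 (4.59-fold), and COX6B1 21397, 19475 and 21063 against 5013 (4.12-fold). COX6B1 was the most abundant of all members per length, at 482 ± 13.8 RPKM in KD (SD, n = 3) and 173 in WT. COX6A1 rose 2.47-fold and COX7B 2.28-fold. COX5A, which has no second form among the members, stood at 2283, 2355 and 2647 against 515 (4.71-fold), and COX7C, COX5B and COX6C rose 4.34-fold, 3.38-fold and 2.73-fold.

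COX7A1, the heart and skeletal muscle form of COX7A, fell. It (chromosome 19, 36150922 to 36152869) stood at 17.1, 33.4 and 10.0 against 144, so WT was 7.16-fold above KD (log2 -2.94, SE 0.68, limma adjusted p = 0.00897). All 3 KD libraries were below WT but differed more than 3-fold among themselves. The call was lost without the minimum level (adjusted p = 0.0979). COX7A1 made up 0.186%, 0.441% and 0.109% of the reads of the COX7A pair in KD and 7.85% in WT (95% exact binomial interval 6.6 to 9.25%). Beside it, the summed level of 9 striated muscle markers was 20.01 to 53.6 in KD and 232 in WT. Of these, TNNT2 passed the minimum and fell, DES stood at 34.4 in WT, and MYH2 and MYL2 were at 0 in every library. Their part in the COX7A1 difference was not tested.

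COX7B2, described mainly in testis, rose instead, at 227, 199.7 and 190.1 against 53.3 (3.85-fold, log2 1.92, SE 0.23, limma adjusted p = 0.000573). It made up 8.60%, 7.84% and 6.67% of the reads of the COX7B pair in KD and 4.69% in WT. The sum of 7 male germ cell markers was 97.8 to 153 in KD and 443 in WT, with PRM1, TNP1 and ODF1 at 0 in every library. Nearly all of this sum was SYCP3 (97.8 to 153 against 430), the only marker of the 7 that passed the minimum. COX6B2, also described as a testis form, had 8.53, 7.77 and 17.8 against 27.8, which was not called (log2 -1.31, limma adjusted p = 0.12). It was called lower without KD 3 (adjusted p = 0.0461) and with equal library totals (adjusted p = 0.0436). For COX6A2 a count of 0 allowed a share of up to 0.153 to 0.209% of its pair in KD and 0.52% in WT, and for COX8C up to 0.0771 to 0.102% and 0.489%.

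All 16 complex V members rose, with a median of 1.81; 14 were called with equal library totals and 15 without the minimum level. ATP5ME, a small membrane subunit that helps join ATP synthases in pairs, stood at 686, 594 and 689 against 121 (5.42-fold, log2 2.43, SE 0.16, limma adjusted p = 7.45e-05). ATP5F1C, the central shaft of the motor, had 6654, 5860.0 and 6669 against 1195 (5.35-fold), and ATP5F1E 14393, 11509 and 14038 against 2607 (5.11-fold). The catalytic subunit ATP5F1B had 25681, 24085 and 27053 against 7376 (3.47-fold) and was second per length among all members, at 241 ± 3.503 RPKM in KD (SD, n = 3) and 103 in WT.

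The 3 genes for the c ring, the rotor through which protons pass, encode the same mature protein with different import signals. ATP5MC1 rose 3.57-fold, from 988.5 in WT to 3640.5, 3383 and 3563. ATP5MC2 rose 2.85-fold, from 2714 to 7959, 7415 and 7824. ATP5MC3 rose 4.47-fold, from 1559 to 6876, 6992 and 7030.5. The peripheral stalk genes ATP5PB, ATP5PD, ATP5PF and ATP5PO had the highest median of the enzyme's parts, at 2.19, against 1.79 for F1, 1.83 for the c ring and 1.2 for the accessory membrane subunits. These medians were not tested against each other. ATP5IF1, which blocks the enzyme when it runs in reverse, had 2457, 2382 and 2795 against 1677, a smaller rise (1.52-fold, log2 0.60, SE 0.12, limma adjusted p = 0.00533) whose call was lost with equal library totals (adjusted p = 0.711) and without the minimum level (adjusted p = 0.0573). ATP5MG rose 1.48-fold, and its call was also lost with equal library totals (log2 0.0013, adjusted p = 0.993).

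The order of members by RPKM was similar in both groups. Spearman's rho across the 77 tested members was 0.882 between the KD mean and WT and 0.997 to 0.998 between KD libraries, as a description across genes that share each library. The median was 22.5 RPKM in KD and 10.7 in WT. Among the KD libraries, KD 2 was the lowest for 56 of 77 members, KD 1 for 11 and KD 3 for 10. The members' median deviation from the KD mean was 0.025, -0.083 and 0.054 log2 units in KD 1, 2 and 3, against -0.0047, -0.042 and 0.054 for protein-coding genes.

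Many subunit genes are short, and short protein-coding genes lay further toward KD in these libraries. The median log2 difference of protein-coding genes fell with exonic length, from 0.86 under 1 kb and 0.87 at 1 to 2 kb through 0.58 at 2 to 4 kb and 0.26 at 4 to 8 kb to -0.07 at 8 kb or more. In the same classes the members had medians of 2.20 (9 genes), 1.69 (22), 1.51 (27), 0.95 (11) and 1.09 (8), above the protein-coding median in each class. Classes of fewer than 20 members are thinly filled. Across members, log2 exonic length and log2 difference had a Pearson r of -0.26 and a Spearman rho of -0.40 (n = 77 genes), and with the length of the main transcript in its place -0.03 and -0.08. The part of length in the members' difference was not tested.

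**Figure D4:**
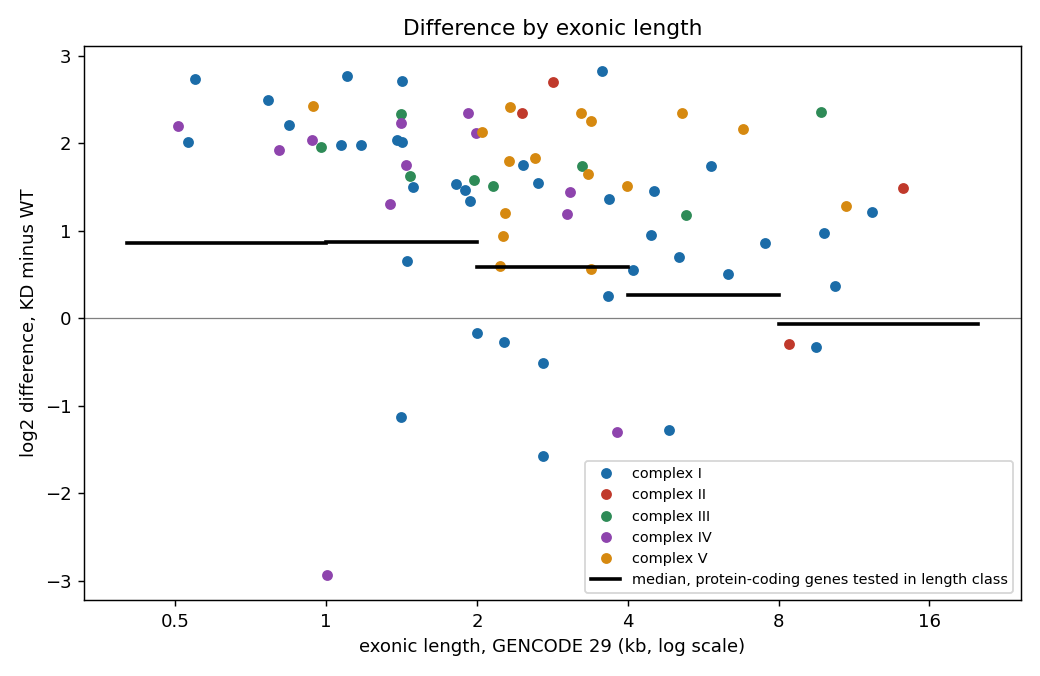
Log2 difference KD minus WT of each tested member against its exonic length in GENCODE 29 (kb, log scale), coloured by complex; black lines are medians of protein-coding genes in each length class. The lines step down from 0.86 under 1 kb to -0.07 at 8 kb or more, and most members lie above the line of their class.

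Pseudogene copies of the members, which arise by gene duplication or when a messenger RNA is copied back into the genome, held fewer reads relative to their parents in KD than in WT. For 45 members, 170 such rows were found by symbol, 100 of them with reads. Without SDHA and its copies, their reads were 0.233%, 0.296% and 0.190% of their parents' reads in KD and 3.80% in WT. Over all 45 members, the share was higher in WT for 32, higher in KD for 3 (NDUFV2, COX6A1 and ATP5F1C) and equal in 10. Copies of COX6C held 3.34% of its reads in KD and 48.0% in WT, those of UQCRB 1.83% and 75.9%, and those of NDUFA8 0.521% and 26.2%. For NDUFB8, which was not called, the shares were 22.7% and 116%. Reads of parents and copies may be exchanged in the counting, so the level of a member with a high share is uncertain, and the part of this in the differences was not tested.

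**Figure D5:**
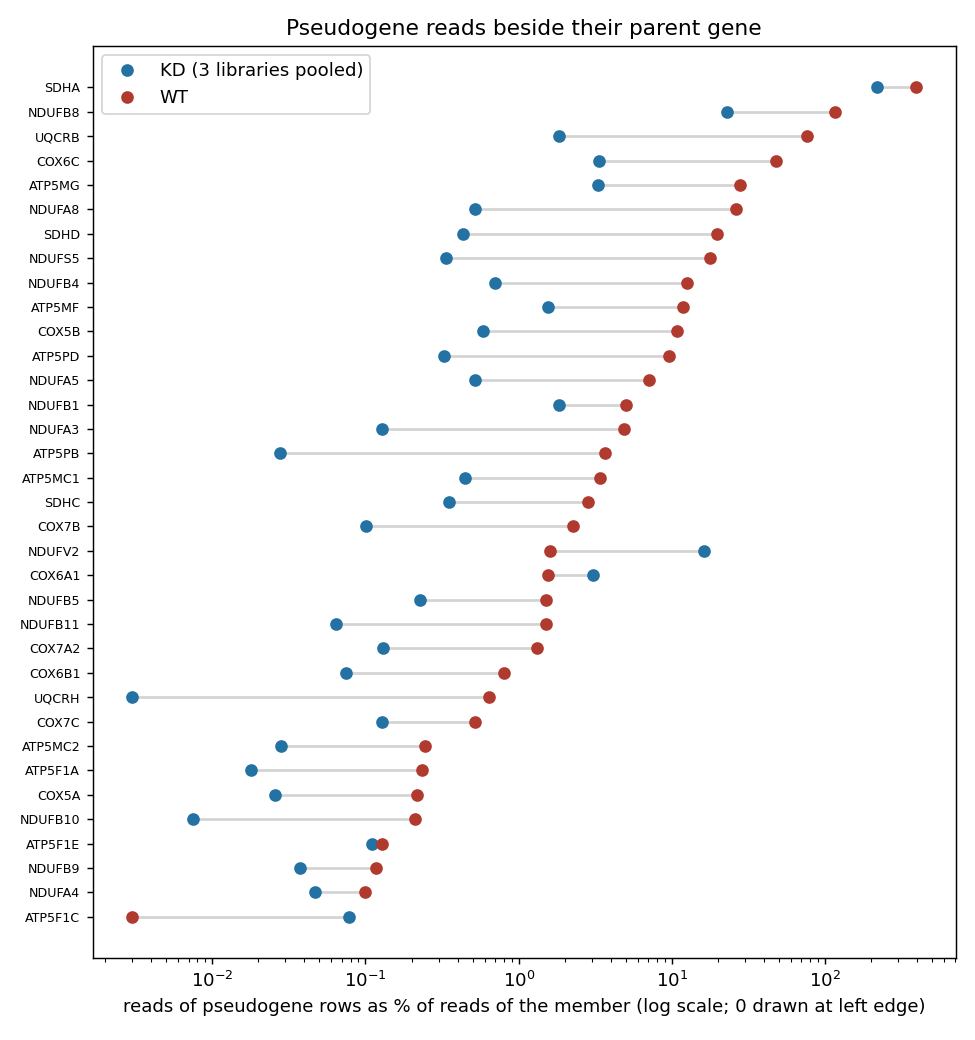
Reads of the pseudogene rows of each member as a percentage of the member's own reads (log scale; 0 is drawn at the left edge), for the 3 KD libraries pooled (blue) and WT (red). WT lies to the right of KD for most members, among them UQCRB (1.83% and 75.9%) and COX6C (3.34% and 48.0%); NDUFV2, COX6A1 and ATP5F1C are the exceptions.

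Other genes of the pathway were counted from lists of their known roles. Of 8 subunits or carriers that the symbol rule leaves out, 7 were tested and all 7 rose (median 2.17), among them ATP5MK, 6.53-fold, and NDUFAB1, the mitochondrial acyl carrier protein, 4.57-fold. COX4I2, the hypoxia form of COX4, did not pass the minimum. Assembly factors build the complexes without staying in them. For these lists too the background is the 45.9% of protein-coding genes called higher and 24.7% called lower, and no list was tested against it or against the subunits. Of 17 for complex I, 11 rose and ACAD9 and NDUFAF6 fell (median 0.78), and NDUFAF4 stood at 2451, 2083 and 2435 against 301.0 (7.72-fold). Of 22 tested for complex IV, 14 rose and COX20, CMC2 and COX19 fell (median 0.83), and COA6, a copper delivery factor, had 1409, 1039.7 and 1206 against 142 (8.57-fold). All 4 for complex II, 3 of 6 for complex III and 2 of 3 for complex V rose, and none of these fell. The 3 of 6 for complex III is near the background.

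Against the same background, of 12 regulators of respiratory genes 8 rose and PPARGC1B, a coactivator, fell (log2 -1.03). PPARGC1A of the same list rose 2.79-fold. Of the factors whose motifs were searched above, GABPA rose 3.27-fold, YY1 rose 1.37-fold and NRF1 was not called (log2 0.29). TFAM and TFB2M, factors that serve in transcription of the mitochondrial genome, rose 4.63-fold and 4.18-fold. In the same list POLRMT rose 1.37-fold and TFB1M was not called (log2 -0.75). Of 13 tricarboxylic acid cycle enzymes, which feed the chain with electrons, 11 rose and none fell (median 0.99). Of the 13 messenger RNAs of the mitochondrial genome itself 7 rose, a share near that background, MT-CO1 fell (log2 -0.46) and 5 were not called, with a median of 0.58. Their medians were 0.20 for the 7 of complex I, -0.06 for MT-CYB of complex III, 0.96 for the 3 of complex IV and 1.09 for the 2 of complex V. The nuclear members of these complexes stood at 1.36, 1.68, 1.84 and 1.81. The difference between nuclear and mitochondrial messengers was not tested.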

How the data were processed

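Total RNA of 4 libraries was sequenced after ribosomal RNA depletion, with a strand-marking protocol, per the labels' protocols. Per the submitters' processing notes, the tools were STAR 2.7.11b, featureCounts 2.0.6 and DESeq2 and the genome build was hg38. The annotation release, the strand setting, the treatment of reads matching several genes and the origin of the scaling factors were not given in the sources used here. As deposited, the signal values are normalized counts per gene, and 100% were whole reads divided by 1 factor per library (tolerance 0.001), so reads were recovered.

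The test was limma-trend (limma 3.58.1, R 4.3.3) on log2(value + 1) for genes with a mean of at least 10, two-sided, with Benjamini-Hochberg adjustment over all genes fitted and a threshold of 0.05. The spread comes from the KD libraries, and the lone WT library is assumed to vary like them. Alternatives were TMM, median-of-ratios, upper-quartile and equal-total scaling, other minimum levels and pseudocounts, protein-coding genes alone, edgeR 4.0.16, DESeq2 1.42.0 and leaving out each KD library. The scripts were tested on simulated data. A count of 3 reads, the floor for 0, equals 3.33 normalized counts in WT and 0.926 over the KD libraries. Intervals and floors cover counting error only, since no molecular identifiers are given. Positions and lengths came from GENCODE 29 (92.9% of gene identifiers found), promoters from RefSeq on GRCh38.p14. Members and lists were chosen with earlier results of these data known. Named with full values were the SDH genes, the 3 called members of each other complex with the largest rise, every member that fell, isoform pairs, c ring genes, nuclear core subunits of complex I, NDUFA4, ATP5IF1, CYC1 and the most abundant member per length. Genes named beyond this rule, among them those with shared exons or high pseudogene shares, were chosen after their values were seen. The result of 1 member is not reported here.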

Additional observations from a re-analysis of the deposited data

How the results depend on the processing

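Of the 77 members tested, 58 were called higher and 2 (NDUFV2 and NDUFA11) lower in each of the 15 settings, the main one included. The number of members higher ranged from 58 (equal library totals) to 67, and was 65 without each KD library in turn. The number lower was 4, became 10 with equal library totals, and was 3 to 5 without a KD library. The members' median of 1.54 became 1.77 with TMM, 1.82 with median-of-ratios, 1.75 with upper-quartile and 0.976 with equal-total scaling, 1.65 with edgeR and 1.73 with DESeq2, and 1.52 to 1.62 without a KD library. The 4 scalings moved the median of all genes by 0.25, 0.30, 0.23 and -0.61. NDUFA9, NDUFB9 and NDUFV3 turned negative with equal totals, and NDUFB1 and NDUFB8 positive under other scalings. SDHA was called lower with equal totals (-0.86, adjusted p = 0.00367) and without the minimum level (adjusted p = 0.0451), where more genes entered the fit. NDUFS7 and NDUFV1 lost their calls with equal totals. The cause of these changes was not tested. No paired analysis was possible because WT has a single library. Depth limits the restricted COX forms, which had 0 to 43 reads in a KD library except COX7B2.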
